A study of Mus musculus with 83 samples.

Results

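Control mouse ESCs were sampled again on day 25 of a time course, and their small RNAs were compared with those of the control cells of day 1. These are 6 of the 83 libraries of the series, 3 per day, chosen by title: d1.1 to d1.3 control and d25.1 to d25.3 control, without the R1 suffix that a second set of libraries carries. All 6 are labelled as ESCs of E14 background and Wildtype genotype, while the study's methods list a *Dnmt1* loxP/loxP line of C57BL/6 strain as the source of the cells. In the Dnmt1 KO libraries used beside them, *Dnmt1*, which encodes the methyltransferase that copies DNA methylation after replication, was removed by a Cre recombinase induced with tamoxifen, and the sources used here do not say whether control cells received tamoxifen. Cells were grown in serum and LIF on gelatin, with or without a layer of feeder fibroblasts, and which libraries had feeders is not stated. The series design text counts 3 biological replicates per group but does not say whether they were separate cultures. The p-values of the fit thus measure only the spread between libraries within a group. That spread is pooled over 36 time course libraries of both genotypes. The comparison asks how far the small RNAs of the controls, which serve as the baseline of the series, moved between its first and last day.

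microRNAs (miRNAs) are RNAs of about the length sequenced here that Argonaute proteins carry to mRNAs, and the seed, the bases near the 5′ end, selects the targets. ESCs are known for the miR-290 cluster, whose seed is shared with the miR-302 cluster and closely related to that of miR-17-92, whereas let-7 miRNAs accumulate in differentiated cells and are kept low in pluripotent cells by LIN28. The imprinted Dlk1-Dio3 region on chromosome 12 holds a large array of miRNAs and C/D box snoRNAs that are transcribed from the maternal chromosome together with *Meg3*, *Rian* and *Mirg*, while *Dlk1*, *Rtl1* and *Dio3* are expressed from the paternal one. The maternal genes of this region are known to vary among mouse pluripotent stem cell lines.

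The mature sequences of the miRNAs on which the results turn are given first, with the seed, bases 2 to 8, in capitals. They are RefSeq sequences (GRCm38.p6). The features of the table are whole hairpins, so its reads are not divided between the arms, and the arm shown is the one usually given as the guide. The first set holds members of the let-7 family with 1 common seed, all lower on day 25.
let-7i-5p: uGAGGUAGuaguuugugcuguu
let-7g-5p: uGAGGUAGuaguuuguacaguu
let-7b-5p: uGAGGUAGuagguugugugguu
miR-98-5p: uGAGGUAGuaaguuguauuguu
The second set holds miRNAs abundant in ESCs, from the miR-290 cluster and, last, the miR-302 cluster, with the seed AAGUGCU in common.
miR-291a-3p: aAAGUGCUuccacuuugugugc
miR-294-3p: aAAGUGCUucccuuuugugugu
miR-295-3p: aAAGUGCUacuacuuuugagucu
miR-302d-3p: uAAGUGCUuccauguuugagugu
The third set shows a seed shared by hairpins of miR-17-92, miR-106a-363 and miR-106b-25, with miR-92a made from both miR-17-92 and miR-106a-363 as an identical molecule.
miR-92a-3p: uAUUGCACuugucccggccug
miR-363-3p: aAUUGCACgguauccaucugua
miR-25-3p: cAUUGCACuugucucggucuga
The fourth set is of the Dlk1-Dio3 region, shown for the hairpins *Mir127* and *Mir411*, the most abundant ones antisense to *Rtl1* and around *Mirg*, and for *Mir136* and *Mir300*, each down to a few reads. Their seeds differ.
miR-127-3p: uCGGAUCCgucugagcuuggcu
miR-136-5p: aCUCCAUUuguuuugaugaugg
miR-411-5p: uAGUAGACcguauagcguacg
miR-300-3p: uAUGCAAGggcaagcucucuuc
The last set is the pair miR-221 and miR-222, made from neighboring hairpins on the X chromosome with 1 seed.
miR-221-3p: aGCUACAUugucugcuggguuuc
miR-222-3p: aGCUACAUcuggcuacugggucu

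Levels are given as RPM, reads per 1000000 reads of the library's total, before any scaling between libraries. Depth was 870481 to 2258712 reads on day 1 and 521066 to 815523 reads on day 25, so that 1 read was worth up to 1.92 RPM on day 25. Every day 25 library was shallower than every day 1 library, and day cannot be told apart from library preparation or depth. Replicates of a day differed by more than counting error (chi-square per degree of freedom 2.11 to 42.7 over miRNA features). Log2 fold changes come from a limma fit on log2(RPM + 1), which shrinks the change of rare features, and adjusted p-values are Benjamini-Hochberg values over all 2582 features tested.

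Of the 2582 features tested, 1314 (50.9%) were called at an adjusted p under 0.05, with 588 (22.8%) higher and 726 (28.1%) lower on day 25. Among the 291 miRNA features 200 were called (68.7%), 39 higher (13.4%) and 161 lower (55.3%). The median log2 difference was -0.04 over all features and -0.57 over miRNAs. Changes above 1 on the log2 scale were reached by 14 miRNAs among those higher and by 117 among those lower. The 3 libraries of day 25 lay wholly above or below the 3 of day 1 in 1250 features (48.4%), and wholly outside the range of the 15 control libraries of days 1 to 11 in 810 (31.4%). Of the 2582 features 236 passed the abundance filter only through the 6 libraries, and among the other 2346 the calls were 491 higher (20.9%) and 709 lower (30.2%). Of the 1314 called features, 783 overlap another feature, such as a miRNA and its host gene, and their reads count for both.

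miRNA features took a similar share of the libraries on both days, 56.0, 57.2 and 59.1% of the reads on day 1 and 56.6, 57.9 and 54.5% on day 25, which overlap (exact permutation test, two-sided, p = 0.5). Small nuclear RNAs (snRNAs, parts of the spliceosome) took 0.289, 0.275 and 0.218% on day 1 against 0.462, 0.486 and 0.616% on day 25. Mitochondrial tRNAs took 0.622, 0.481 and 0.479% on day 1 against 0.253, 0.259 and 0.288% on day 25. Protein-coding gene bodies that hold no annotated small RNA took 6.04, 5.68 and 5.76% on day 1 against 7.64, 7.76 and 7.76% on day 25. The last 3 classes did not overlap between the days, each with an exact permutation p of 0.1, the smallest that 3 against 3 allows, and an adjusted p of 0.2 over the 8 classes compared. The same holds for the misc_RNA class, of Y RNAs and other small RNAs, which was 1.43, 1.43 and 1.32% on day 1 against 0.942, 0.962 and 1.06% on day 25. For 3 of these classes the day 25 level was near or within the range of the days between: the control means over days 3, 6, 9 and 11 were 0.580, 0.532, 0.586 and 0.524% for snRNAs, 0.338, 0.263, 0.436 and 0.283% for mitochondrial tRNAs and 1.23, 1.06, 0.806 and 1.41% for the Y RNA class. The gene bodies stood at 5.97, 5.80, 5.80 and 5.61% on those days, all under day 25.

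The Dlk1-Dio3 region was nearly silent on day 25. Its 57 miRNA features summed to 10137 to 11304 RPM on day 1 and to 88.3 to 142 RPM on day 25, a mean 94.4-fold lower. All 46 of its tested miRNAs would have passed the abundance filter without the 6 libraries; 45 of them fell and 0 rose, against 28.1% lower and 22.8% higher over all features, with a median log2 difference of -3.67. On day 25, 32 of the 57 had no read in any library, 21 of them among the 46 tested, and 39 of the 46 had 9 reads or fewer over the 3 libraries. In bulk RNA, fewer cells that make a miRNA and less of it per cell cannot be told apart.

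The *Rtl1* feature (chr12:110827404-110838540, build NCBIM37) held 6347, 6835 and 7185 RPM on day 1 and 66.3, 36.5 and 47.8 RPM on day 25, log2 fold change -7.22 ± 0.14 (SE), adjusted p = 9.4e-34. *Rtl1* is a paternally expressed gene derived from a retrotransposon, but all of the reads of its feature belong to the miRNA hairpins transcribed from the opposite strand, whose summed RPM (6347 to 7185 on day 1) matches it. Strand was not stated to be used in counting. The most abundant of these hairpins is *Mir127* (chr12:110831042-110831138), with 5131, 5591 and 6082 RPM on day 1 and 53.8, 19.2 and 39.2 RPM on day 25. All day 25 values lay far below those of day 1 (log2 fold change -7.43 ± 0.18 (SE), adjusted p = 2.7e-30). *Mir136* had 279, 318 and 303 RPM on day 1 and 0, 0 and 1.23 RPM on day 25, which is 1 read over the day 25 group and a pooled ratio of 569-fold (95% exact binomial interval 102 to 22476), counting error only. *Mir434* held 791, 785 and 669.7 RPM on day 1 and 10.8, 17.3 and 3.68 RPM on day 25 (log2 fold change -6.34 ± 0.21 (SE), adjusted p = 7.7e-26) and *Mir431* 121, 118 and 107 RPM on day 1 and 1.79, 0 and 3.68 RPM on day 25, a pooled ratio of 55.4-fold (95% exact binomial interval 21.5 to 204). The 5 tested Rtl1-antisense miRNAs all fell, and so did both tested miRNAs inside *Rian*.

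Downstream, in the block of hairpins around *Mirg* that includes the miR-379 to miR-410 array, 31 of 31 tested miRNAs fell (median -3.56). *Mir411* went from 1254, 1280.4 and 1341 RPM to 14.3, 3.84 and 11.04 RPM (log2 fold change -7.18 ± 0.21 (SE), adjusted p = 6.6e-28), and *Mir541* from 876, 922 and 1164 RPM to 12.5, 13.4 and 20.8 RPM (log2 fold change -6.04 ± 0.13 (SE), adjusted p = 1.6e-32). Neither overlapped between the days. *Mir410*, the last hairpin of the array, held 496, 437 and 516 RPM on day 1 and 8.96, 3.84 and 8.58 RPM on day 25 (log2 fold change -6.08 ± 0.16 (SE), adjusted p = 3.6e-29). *Mir379*, the first, had 39.2, 35.9 and 55.1 RPM on day 1 and no read in any day 25 library, at least 27.4-fold lower where 3 reads over the group are taken as the limit of a count of 0 (adjusted p = 9.2e-27). *Mir300* had 239, 225 and 247 RPM on day 1 and 0, 1.92 and 1.23 RPM on day 25, or a pooled ratio of 222-fold (95% exact binomial interval 61.4 to 1836).

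Upstream, near *Meg3*, 5 of 6 tested miRNAs fell. *Mir337* had 25.7, 25.24 and 26.4 RPM on day 1 and 0 in all 3 day 25 libraries, at least 16.3-fold lower (adjusted p = 1.3e-26). *Mir673* had 44.1, 50.5 and 40.2 RPM on day 1 and 0, 1.92 and 0 RPM on day 25, with 1 read on day 25, a pooled ratio of 87.5-fold (95% exact binomial interval 15.6 to 3472). The 4 tested long genes of the region, *Rtl1*, *Rian*, *Mirg* and *Meg3*, all fell. *Rian*, a long noncoding RNA that hosts snoRNAs, had 186, 205 and 180.4 RPM on day 1 and 3.59, 1.92 and 2.45 RPM on day 25, and *Mirg* had 1608, 1563 and 1902 RPM on day 1 and 34.1, 21.1 and 31.9 RPM on day 25 (log2 fold change -5.97 ± 0.12 (SE), adjusted p = 9.2e-33). *Meg3* itself gave few small RNA reads, 1.94, 0.443 and 3.45 RPM on day 1 and 0 in each day 25 library. Of the 23 snoRNA features of the region 13 were tested, of which 11 fell and 0 rose (median -3.37). The summed level of the 23 was 131 to 164 RPM on day 1 and 1.79 to 3.84 RPM on day 25. Among them *AF357355*, inside *Rian*, had 17.4, 23.9 and 16.1 RPM on day 1 and 0 in every day 25 library, at least 12.1-fold lower.

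The summed level on day 25 lay far under that of every earlier day. The summed miRNAs of the region were 8135 ± 349.6 RPM on day 3 (mean ± SD, n = 3), 4109.9 ± 309 on day 6, 11196 ± 1624 on day 9 and 6204 ± 321 on day 11. Between day 11 and day 1, 24 of the 46 tested were lower and 1 was higher (18.3% and 16.7% over all features, 34.9% called in all; among miRNAs 39.2% lower, 10.3% higher and 49.5% in all), with a median log2 difference of -0.54. Between day 25 and day 11, 44 were lower and 0 higher (33.8% and 25.5% over all features, 59.3% in all; among miRNAs 46.7%, 27.8% and 74.6%), with a median of -3.10. The comparisons share the libraries of day 1 or day 25 with the main one.

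In Dnmt1 KO cells the same features moved the other way. Their summed level went from 9335 to 10932 RPM on day 1 to 121915 to 127079 RPM on day 25, and 45 of the 46 tested rose and 0 fell (21.3% higher and 25.8% lower over all features). Of the 46, 15 reached the abundance filter only through Dnmt1 KO libraries, so a high level there was a condition of their test. Among the 31 that passed in the 18 control libraries 30 rose and 0 fell, beside 19.7% higher and 28.5% lower over all features that passed there. On day 1 the sums of the genotypes lay close together, 10664 ± 592 RPM in controls and 10263 ± 829.5 RPM in Dnmt1 KO. The day 25 change was lower in controls than in Dnmt1 KO for all 46 by the interaction test (9.72% of all features were called in that direction), and for all 31 of those that passed in controls. *Mir127* had 4563, 4219.6 and 5201 RPM in the day 1 KO libraries and 45704, 46923 and 45378 RPM in those of day 25, and the change in controls minus that in KO was -10.80 on the log2 scale (adjusted p = 7.2e-31). On day 25 the summed miRNAs of the region thus stood at a mean of 113 RPM in controls and 123847 RPM in KO cells.

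**Figure D1:**
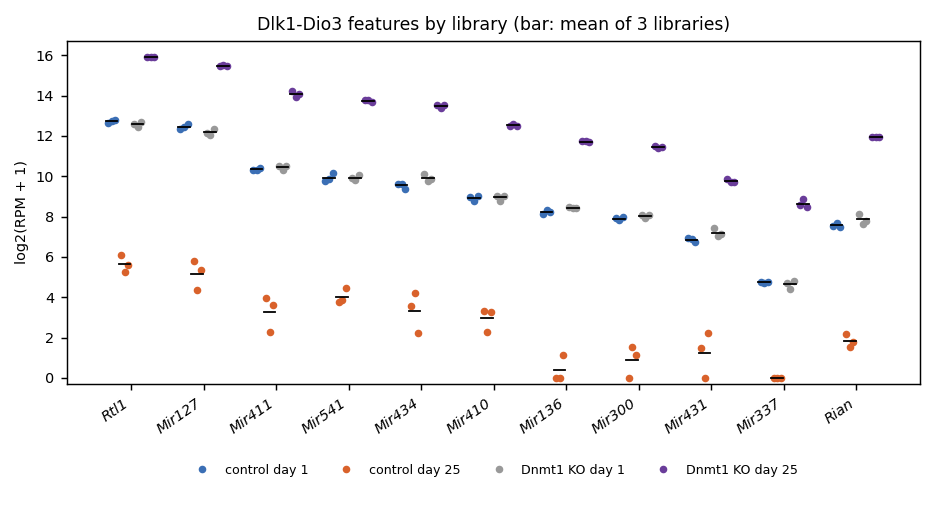
Level of named Dlk1-Dio3 features in single libraries as log2(RPM + 1), for controls of day 1 and day 25 and Dnmt1 KO cells of both days, with bars at the mean of 3 libraries. The control libraries of day 25 lie under all others, and the Dnmt1 KO libraries of day 25 lie above them (*Mir127*: mean 5601 and 37.4 RPM in controls, 4661 and 46002 RPM in KO).

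The let-7 family fell as well, and it did so in both genotypes. All 6 tested members fell in controls, with log2 differences from -5.04 to -1.58 and a median of -3.51. All 6 fell in Dnmt1 KO cells (median -3.61). Of all miRNA features 55.3% fell in controls and 48.1% in KO cells. *Mirlet7i*, the most abundant, held 733, 745 and 731 RPM on day 1 and 23.3, 24.9 and 22.1 RPM on day 25. Its groups did not overlap (log2 fold change -5.04 ± 0.20 (SE), adjusted p = 4.9e-23). *Mir98*, which shares the let-7 seed and lies in an intron of *Huwe1*, had 71.2, 95.2 and 89.6 RPM on day 1 and 10.8, 7.68 and 6.13 RPM on day 25 (log2 fold change -3.37 ± 0.18 (SE), adjusted p = 3.9e-19). *Mirlet7g* ranged more widely on day 25, with 120.2, 116 and 149 RPM on day 1 and 32.3, 3.84 and 7.36 RPM on day 25 (log2 fold change -3.66 ± 0.30 (SE), adjusted p = 1.8e-13). *Mirlet7b* had 37.3, 39.4 and 28.7 RPM on day 1 and 0, 0 and 1.23 RPM on day 25, or 1 read on day 25 and a pooled ratio of 69.7-fold (95% exact binomial interval 12.4 to 2766). The 6 features with the seed GAGGUAG summed to a mean of 1151 RPM on day 1 and 82.1 RPM on day 25. Between day 1 and day 11 none of the 6 was called in controls in either direction, and the sum of the 9 family members on day 11 was 1243 ± 25.01 RPM against 1128 to 1183 RPM on day 1.

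miRNAs known from fibroblasts and other somatic cells fell too. Of the 8 miRNAs listed as markers of feeder fibroblasts 7 were tested, and 6 fell and 0 rose (median -2.18). Over all miRNA features 55.3% fell and 13.4% rose. The falls differed in size. *Mir21*, an abundant member, fell little, with 9797, 9594 and 9650 RPM on day 1 and 9095, 7991 and 8614 RPM on day 25. *Mir145* had 91.1, 83.2 and 83.9 RPM on day 1 and 37.6, 57.6 and 40.5 RPM on day 25. *Mir143*, a miRNA of smooth muscle and fibroblasts, had 9031, 8944 and 11098 RPM on day 1 and 947, 896 and 1009 RPM on day 25 (log2 fold change -3.48 ± 0.10 (SE), adjusted p = 1.3e-27), so the day 25 levels lay far below those of day 1. *Mir214*, transcribed with miR-199a-2 from *Dnm3os*, had 148, 139 and 134 RPM on day 1 and 1.79, 0 and 0 RPM on day 25, or 1 read on day 25 and a pooled ratio of 268-fold (95% exact binomial interval 48.0 to 10604). *Mir199a-2* had 16.5, 11.5 and 16.1 RPM on day 1 and 0 in every day 25 library, at least 9.28-fold lower. *Mir10b*, which lies in the HoxD cluster, had 1242, 1434 and 2018 RPM on day 1 and 321, 389.6 and 406 RPM on day 25 (log2 fold change -2.18 ± 0.15 (SE), adjusted p = 6.7e-16). *Mir22*, the most abundant of the list and also expressed outside fibroblasts, was not called: it had 17607, 17016 and 13534 RPM on day 1 and 13484, 14213 and 14901 RPM on day 25 (adjusted p = 0.06), though it was called without day 1 replicate 3 (log2 fold change -0.39).

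The pair *Mir221* and *Mir222* fell together, with 245, 228 and 215 RPM on day 1 and 50.2, 42.2 and 13.5 RPM on day 25 for *Mir221* (log2 fold change -2.98 ± 0.22 (SE), adjusted p = 7.5e-15) and 291, 278 and 227 RPM on day 1 and 80.7, 63.3 and 60.1 RPM on day 25 for *Mir222* (log2 fold change -2.09 ± 0.14 (SE), adjusted p = 1.8e-16). *Mir29a*, of a family known to target collagen mRNAs, had 615, 624 and 505 RPM on day 1 and 102, 104 and 90.7 RPM on day 25 (log2 fold change -2.67 ± 0.10 (SE), adjusted p = 2.3e-24). *Mir152* had 136, 174 and 165 RPM on day 1 and 10.8, 5.76 and 14.7 RPM on day 25 (log2 fold change -4.00 ± 0.19 (SE), adjusted p = 5.6e-21), and *Mir148a*, with the same seed, 11158, 12613 and 13679.8 RPM on day 1 and 6978, 6608 and 6563 RPM on day 25 (log2 fold change -1.02 ± 0.11 (SE), adjusted p = 1.9e-10). None of these overlapped between the days. The other tested member of the miR-29 family (log2 fold change 0.07) and *Mir148b*, with the seed of *Mir148a* (-0.13), were not called. *Mir146* had 62.0, 88.5 and 105 RPM on day 1 and 7.17, 15.4 and 9.81 RPM on day 25 (log2 fold change -3.02 ± 0.27 (SE), adjusted p = 3.4e-12) and *Mir142*, a miRNA of blood cells, 2031, 2389 and 2024 RPM on day 1 and 633, 666 and 672 RPM on day 25 (log2 fold change -1.84 ± 0.16 (SE), adjusted p = 1.0e-12), while *Mir150*, also of blood cells, went the other way, with 172, 181 and 113 RPM on day 1 and 359, 322 and 342 RPM on day 25 (log2 fold change 1.03 ± 0.14 (SE), adjusted p = 4.6e-08). *Mir126*, inside the endothelial gene *Egfl7*, had 1173, 1310.5 and 1566 RPM on day 1 and 532, 549 and 574 RPM on day 25 (log2 fold change -1.41 ± 0.15 (SE), adjusted p = 2.8e-10). The miRNA-type feature *AL844840.2*, known here only by its clone name, had 1366, 1225 and 1230.3 RPM on day 1 and 124, 113 and 118 RPM on day 25 (log2 fold change -3.55 ± 0.12 (SE), adjusted p = 5.7e-26).

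Markers of other cell types moved with these miRNAs in part. The 12 feeder fibroblast genes summed to 56.7 to 75.8 RPM on day 1, 119 ± 6.91 RPM on day 11 and 26.9 to 34.5 RPM on day 25. Of the 2 that could be tested, *Fn1* (fibronectin) fell, with 39.7, 42.9 and 58.6 RPM on day 1 and 14.3, 19.2 and 17.2 RPM on day 25 (log2 fold change -1.54 ± 0.16 (SE), adjusted p = 9.6e-11), and *Sparc* was not called, with 2.42, 12.4 and 5.74 RPM and 5.38, 5.76 and 4.90 RPM. The collagen genes *Col1a1* and *Col3a1* and the fibroblast surface gene *Thy1* were at 0 in all 3 day 25 libraries and held at most 2.91 RPM in any day 1 library, and *Postn* was at 0 in all 6. The rest had few reads and no common direction: *Vim* had 2.42, 2.21 and 2.30 RPM on day 1 and 1.79, 5.76 and 4.90 RPM on day 25, while *Col1a2*, *Col5a1* and *Fbn1* held at most 5.33, 2.30 and 1.92 RPM in any of the 6 libraries, and *Tgfbi* and *Lox*, nearly without reads on day 1, held at most 1.79 RPM on day 25. The 8 fibroblast miRNAs together went from 36535 to 37932 RPM to 23548 to 24970.5 RPM. The sums of let-7, miR-221 and miR-222 and the fibroblast miRNAs also moved between the earlier days: over days 1, 3, 6, 9, 11 and 25 the control means were 1157, 1323, 693, 1714, 1243 and 87.5 RPM for let-7, 495, 543, 253, 875, 438 and 103 RPM for miR-221 and miR-222 and 37229.7, 44884, 29800.3, 48579, 36995 and 24135 RPM for the fibroblast miRNAs. All 3 were higher on day 9 and lower on day 6 than on day 1. The Dlk1-Dio3 sum had means of 10664, 8135, 4109.9, 11196, 6204 and 113 RPM. It was also lower on day 6, but its day 9 libraries (10121 to 13063 RPM) overlapped those of day 1 (10137 to 11304 RPM). The part of feeder cells in the fall of the let-7, miR-221, miR-222 and miR-143 group and of the Dlk1-Dio3 miRNAs was not tested, and small RNA reads over mRNAs are a poor measure of the mRNA. Of 4 neural miRNAs tested 0 were called, the single tested muscle miRNA *Mir499* fell, and 1 of 3 endoderm miRNAs, *Mir215*, fell at levels of a few reads (3.39, 4.87 and 3.45 RPM and 3.59, 0 and 0 RPM). Of 5 blood miRNAs 2 rose and 3 fell. Those that rose were *Mir150* and *Mir155*. *Mir155* had 80.4, 76.1 and 75.8 RPM on day 1 and 102, 117 and 105 RPM on day 25. For all of these lists, the shares over all miRNA features were 13.4% higher and 55.3% lower. The 10 early lineage genes, such as *Fgf5*, *Gata6* and *T*, did not reach the abundance filter, with sums of 15.1 to 17.9 RPM on day 1 and 9.60 to 22.1 RPM on day 25.

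**Figure D2:**
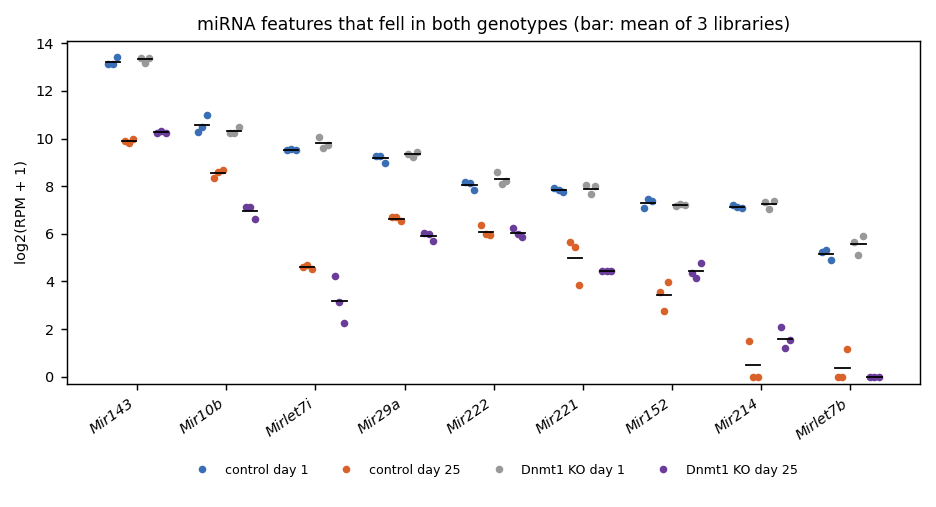
Level of miRNA features known from somatic cells as log2(RPM + 1) in single libraries, with bars at the mean of 3 libraries, for controls and Dnmt1 KO cells of day 1 and day 25. In both genotypes the day 25 libraries lie under those of day 1 (*Mirlet7i*: mean 736 and 23.4 RPM in controls, 896 and 9.72 RPM in KO).

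The miRNAs that mark ESCs stayed high or rose. All 7 miRNAs of the miR-290 cluster were called higher on day 25 (median 0.70), and their sum went from 115767 to 122811 RPM to 175306 to 208803 RPM. Of all miRNA features 13.4% were higher and 55.3% lower (22.8% and 28.1% of all features). *Mir295*, with the highest level of the cluster, had 71624, 71315 and 66885 RPM on day 1 and 116026, 118826 and 106576 RPM on day 25 (log2 fold change 0.57 ± 0.08 (SE), adjusted p = 3.9e-08). *Mir291b* had 1700.0, 1612 and 1249 RPM on day 1 and 3258, 3587 and 3142 RPM on day 25 (log2 fold change 1.01 ± 0.10 (SE), adjusted p = 1.1e-10), *Mir293* 11925, 11426 and 11260.4 RPM on day 1 and 22029.9, 22149 and 22716 RPM on day 25 (log2 fold change 0.82 ± 0.11 (SE), adjusted p = 3.1e-08) and *Mir290* 662, 595 and 650.2 RPM on day 1 and 1237, 1228 and 955 RPM on day 25 (log2 fold change 0.70 ± 0.09 (SE), adjusted p = 5.6e-08). The day 25 libraries of all 4 lay above those of day 1. *Mir294* was uneven on day 25, with 3844, 3558 and 3989.8 RPM on day 1 and 9480.3, 10169.5 and 4256 RPM on day 25, and replicate 3 lay close to day 1 (log2 fold change 0.84 ± 0.16 (SE), adjusted p = 4.6e-05). The rise of *Mir291a* was small, from 11658, 11430.4 and 10765 RPM to 15296, 16021 and 11948 RPM (log2 fold change 0.21 ± 0.09, adjusted p = 0.0496) and lost its call without any 1 of 5 of the 6 libraries. In Dnmt1 KO cells 3 of the 7 rose, beside 29.2% of all miRNA features and 21.3% of all features. The change was larger in controls for 5 of 7 by the interaction test (26.1% of all miRNA features and 10.2% of all features).

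The miR-302 and miR-367 cluster, known from primed pluripotent cells and the early epiblast, dipped and came back. Its 5 members in *Larp7* summed to 969 to 1167 RPM on day 1, 658 ± 44.4 on day 3, 566 ± 38.8 on day 6, 416 ± 86.9 on day 9, 114 ± 23.2 on day 11 and 849.8 to 983 RPM on day 25. Against day 1, 5 of 5 were lower on day 11 (median -3.09) and 1 of 5, *Mir302a*, was lower on day 25 (median -0.32). *Mir302a* had 407, 375 and 383 RPM on day 1 and 323, 339.7 and 277 RPM on day 25 (log2 fold change -0.45 ± 0.16 (SE), adjusted p = 0.016), and lost its call without day 25 replicate 3 (log2 fold change -0.35). *Mir302d* had 463, 369 and 417 RPM on day 1 and 364, 388 and 343 RPM on day 25 and did not pass (adjusted p = 0.091). Between day 25 and day 11 all 5 were higher (median 2.81). Of all miRNA features 39.2% were lower on day 11 and 55.3% on day 25 than on day 1. From day 11 to day 25 27.8% of them were higher.

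The related clusters of the miR-17 family had unlike counts. Of the 6 miRNAs of miR-17-92, whose host is *Mir17hg*, 5 rose and 0 fell (median 0.46), beside 13.4% higher and 55.3% lower over all miRNA features. In its X-linked relative miR-106a-363 1 of 6 rose and 4 fell (median -0.60). That is 16.7% and 66.7%, near the shares of all miRNA features. *Mir92-1* had 45526, 43844 and 39112 RPM on day 1 and 71077, 73056 and 68198 RPM on day 25 (log2 fold change 0.59 ± 0.09 (SE), adjusted p = 3.1e-07) and its copy *Mir92-2*, in miR-106a-363, 36257, 34289.9 and 28998 RPM on day 1 and 25666, 27415 and 27188 RPM on day 25 (log2 fold change -0.44 ± 0.12 (SE), adjusted p = 0.0022). Both make the same mature miR-92a, so how reads of that sequence were shared between them is uncertain. The same holds for miR-19b, made from *Mir19b-1* of miR-17-92, which had 18.4, 16.8 and 28.7 RPM on day 1 and 61.0, 72.9 and 60.1 RPM on day 25 (log2 fold change 1.46 ± 0.23 (SE), adjusted p = 8.1e-07), and from *Mir19b-2*, the member of miR-106a-363 that rose. *Mir18*, whose mature sequence differs from that of *Mir18b*, had 418, 425 and 437 RPM on day 1 and 889, 946 and 570.2 RPM on day 25 (log2 fold change 0.74 ± 0.14 (SE), adjusted p = 1.4e-05). On the X chromosome *Mir363* had 3017, 3057 and 2843 RPM on day 1 and 1275, 1288 and 1398 RPM on day 25 (log2 fold change -1.30 ± 0.10 (SE), adjusted p = 1.5e-14) and *Mir20b* 1425, 1319 and 1438 RPM on day 1 and 688, 747 and 657 RPM on day 25 (log2 fold change -1.13 ± 0.10 (SE), adjusted p = 6.9e-13), with no overlap between the days. The whole X-linked cluster was lower still on day 11, when 6 of 6 lay under day 1 (median -1.77, beside 39.2% of all miRNA features). From day 11 to day 25 5 of 6 in the cluster rose (median 1.23, beside 27.8%). Its control means over days 1, 3, 6, 9, 11 and 25 were 38893, 27649, 18603, 24641, 11890.0 and 29836 RPM. In the third relative, miR-106b-25 in *Mcm7*, *Mir93* rose, with 4660.2, 4683 and 4251 RPM on day 1 and 5694, 6143 and 6306 RPM on day 25 (log2 fold change 0.28 ± 0.08 (SE), adjusted p = 0.0018), and *Mir25* fell slightly, with 8958, 9198 and 8669.9 RPM on day 1 and 8060.4, 8268 and 7209 RPM on day 25 (log2 fold change -0.32 ± 0.08 (SE), adjusted p = 7.4e-04). Among the 7 features with the seed AUUGCAC, which includes miR-92a, miR-363 and miR-25, 2 rose and 3 fell.

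**Figure D3:**
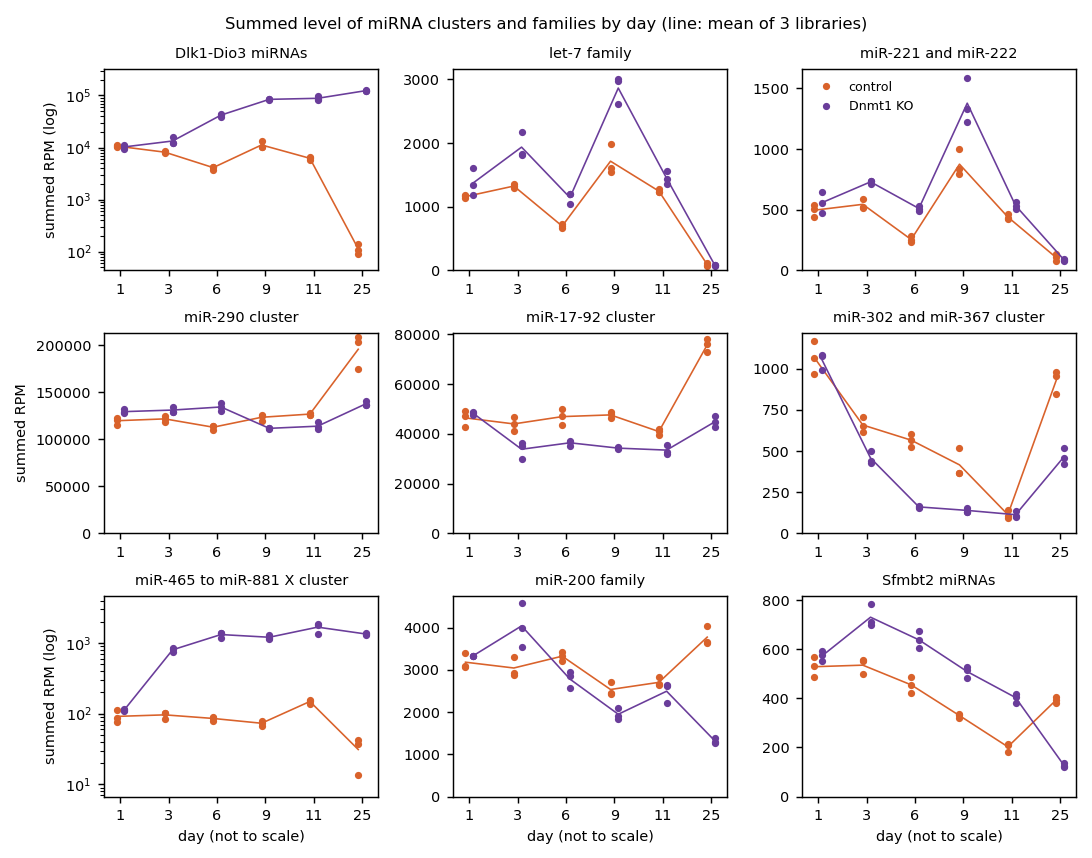
Summed RPM of miRNA clusters and families by day (days 1, 3, 6, 9, 11 and 25, not to scale) in control and Dnmt1 KO libraries, with points for libraries, lines through the means of 3 and a log axis for the Dlk1-Dio3 and X cluster panels. In controls the Dlk1-Dio3, let-7 and miR-221 and miR-222 sums are lowest on day 25, miR-302 and miR-367 is lowest on day 11 (mean 114 RPM) and near its first level on day 25, and miR-290 and miR-17-92 are highest on day 25.

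*Mir182*, the most abundant feature on day 1, and its neighbors declined. *Mir182* had 131585, 139865 and 164649 RPM on day 1 and 106869, 106294 and 107199 RPM on day 25 (log2 fold change -0.57 ± 0.10 (SE), adjusted p = 3.3e-06) and *Mir183* 22917, 25855 and 31409 RPM on day 1 and 9857, 10914 and 10553 RPM on day 25 (log2 fold change -1.48 ± 0.12 (SE), adjusted p = 7.0e-14), and all 3 members of the cluster fell. Of the epithelial miR-200 family, which represses *Zeb1* and *Zeb2*, *Mir141* rose, with 469, 588 and 696 RPM on day 1 and 954, 961 and 1004 RPM on day 25 (log2 fold change 0.62 ± 0.17 (SE), adjusted p = 0.0018), and the other 4 tested members were not called. The family had 20% higher and 0% lower, beside 13.4% and 55.3% over all miRNA features (22.8% and 28.1% over all features). All 5 of the family fell in Dnmt1 KO cells, beside 48.1% of all miRNA features. The change differed between genotypes for all 5 (53.6% of all miRNA features). *Mir99b* had 2759, 2812 and 3492 RPM on day 1 and 1406, 1474 and 1543 RPM on day 25 (log2 fold change -1.16 ± 0.12 (SE), adjusted p = 2.2e-10), *Mir27b* 10339, 11223 and 11286 RPM on day 1 and 6131, 6857 and 6354 RPM on day 25 (log2 fold change -0.90 ± 0.08 (SE), adjusted p = 3.3e-12) and *Mir301b* 309, 335 and 262 RPM on day 1 and 134, 138 and 152 RPM on day 25 (log2 fold change -1.21 ± 0.18 (SE), adjusted p = 3.1e-07). *Mir322*, an X-linked member of the miR-15/16 family, had 149.7, 168 and 147 RPM on day 1 and 59.2, 63.3 and 82.2 RPM on day 25 (log2 fold change -1.32 ± 0.12 (SE), adjusted p = 1.8e-12). *Mir30a* had 3623, 3778 and 4059 RPM on day 1 and 2306, 2445 and 2866 RPM on day 25 (log2 fold change -0.73 ± 0.12 (SE), adjusted p = 1.5e-06), and *Mir30b* rose, with 280.0, 292 and 254 RPM on day 1 and 353, 376 and 413 RPM on day 25 (log2 fold change 0.33 ± 0.10 (SE), adjusted p = 0.0054). Of the miR-34 and miR-449 family 1 of 5 was called, with a loss, a share under the 55.3% lower over all miRNA features.

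A cluster on the X chromosome, known from testis, and the cluster inside *Sfmbt2* were lower on day 25 than on day 1. Of the 17 X cluster features 9 were tested, of which 7 fell and 0 rose (median -1.15). Of all miRNA features 55.3% fell and 13.4% rose. The tested X cluster features were rare: 7 of the 9 had 9 reads or fewer over the day 25 libraries. *Mir470* had 24.2, 31.0 and 36.8 RPM on day 1 and 8.96, 1.92 and 6.13 RPM on day 25 (log2 fold change -2.50 ± 0.24 (SE), adjusted p = 2.0e-11) and *Mir871* 32.0, 40.7 and 47.1 RPM on day 1 and 23.3, 7.68 and 26.98 RPM on day 25 (log2 fold change -1.29 ± 0.23 (SE), adjusted p = 9.2e-06). Of the 9, 6 reached the abundance filter only through Dnmt1 KO cells. In KO cells the 3 that also passed in controls rose, beside 19.7% of all features that passed there. *Mir470* reached a mean of 390.4 RPM in KO cells on day 25. Of the 119 features in the array of near-identical copies inside *Sfmbt2*, an imprinted gene expressed from the paternal allele, 8 were tested and 6 fell (median -0.68). In controls the day 25 libraries lay wholly below day 1 for 2 of the 8, and below all of days 1 to 11 for 0 (22.1% and 14.4% of all features). All 8 fell in Dnmt1 KO cells (median -2.15), beside 48.1% of all miRNA features. In controls the *Sfmbt2* miRNAs were lowest on day 11, when 8 of 8 lay under day 1 (39.2% of all miRNA features). From day 11 to day 25 4 rose and 0 fell, beside 27.8% and 46.7% of all miRNA features. The control means of the *Sfmbt2* miRNAs over days 1, 3, 6, 9, 11 and 25 were 529, 535, 455, 329.8, 203 and 394 RPM. *Mir467c* had 203, 191 and 198 RPM on day 1 and 133, 123 and 126 RPM on day 25 (log2 fold change -0.76 ± 0.15 (SE), adjusted p = 5.6e-05), reads that its copies may share. The other imprinted genes moved differently: of 13 tested 5 rose and 1 fell (22.8% and 28.1% over all features). Of the 12 that passed the filter without the 6 libraries 4 rose and 1 fell (20.9% and 30.2% over all such features). *Mir335* had 1384, 1347 and 1339 RPM on day 1 and 2635, 2614 and 2147 RPM on day 25 (log2 fold change 0.72 ± 0.09 (SE), adjusted p = 1.3e-08), which is nearly all of the signal of its host *Mest*, and *Igf2r*, maternally expressed, had 81.9, 73.1 and 86.2 RPM on day 1 and 154, 173 and 283 RPM on day 25 (log2 fold change 1.15 ± 0.18 (SE), adjusted p = 1.2e-06). *Mir298*, near the *Gnas* locus, fell, with 4318, 4383 and 3462 RPM on day 1 and 3279, 2873 and 3334 RPM on day 25 (log2 fold change -0.49 ± 0.09 (SE), adjusted p = 3.6e-05).

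Among miRNAs that bypass the Microprocessor 1 of 4 tested rose, beside 13.4% of all miRNA features and 22.8% of all features. Of the 4, 1 passed the abundance filter only through the 6 libraries, and 1 of the other 3 rose. *Mir877*, a mirtron excised from *Abcf1* by splicing, had 29.6, 23.5 and 28.7 RPM on day 1 and 75.3, 74.8 and 58.9 RPM on day 25 (log2 fold change 1.19 ± 0.18 (SE), adjusted p = 3.8e-07), and *Mir484* was not called (adjusted p = 0.96). Of 6 tested genes of the miRNA machinery, *Eif2c1*, the gene of Argonaute 1, rose, with 8.72, 9.297 and 9.19 RPM on day 1 and 41.2, 71.0 and 50.3 RPM on day 25 of fragments (log2 fold change 2.29 ± 0.26 (SE), adjusted p = 7.4e-10). Of 13 tested pluripotency genes 3 rose and 2 fell, near or under the shares of all features (22.8% and 28.1%). *Sall4* had 12.6, 8.41 and 4.60 RPM on day 1 and 41.2, 21.1 and 23.3 RPM on day 25 (log2 fold change 1.53 ± 0.27 (SE), adjusted p = 9.4e-06) and *Sox2* 21.8, 25.24 and 13.8 RPM on day 1 and 7.17, 11.5 and 7.36 RPM on day 25 (log2 fold change -1.24 ± 0.24 (SE), adjusted p = 2.7e-05), while *Pou5f1*, at 9.21, 6.64 and 10.3 RPM and 14.3, 7.68 and 15.9 RPM, and *Nanog*, at 5.81, 5.31 and 1.15 RPM and 3.59, 3.84 and 1.23 RPM, were not called. *Dnmt1* itself held 53.8, 54.9 and 46.0 RPM on day 1 and 95.0, 74.8 and 51.5 RPM on day 25 and was not called (log2 fold change 0.34 ± 0.19, adjusted p = 0.15), with day 25 replicate 3 inside the range of day 1 and a call without that replicate (log2 fold change 0.58). *Dnmt3b* had 11.6, 8.41 and 2.30 RPM on day 1 and 17.9, 13.4 and 18.4 RPM on day 25 (log2 fold change 1.13 ± 0.35 (SE), adjusted p = 0.0061) but lost its call without day 1 replicate 3 (log2 fold change 0.58). *Dnmt3a*, at 11.14, 12.4 and 10.3 RPM on day 1 and 8.96, 7.68 and 4.90 RPM on day 25, passed narrowly (adjusted p = 0.047) and lost its call without any 1 of 5 of the 6 libraries.

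Fragments of other structured RNAs changed in both directions. Of 135 tested C/D box snoRNAs, a class known for guiding ribose methylation of rRNA, 23 rose and 73 fell (median -0.41). The C/D box list includes snoRNAs of the Dlk1-Dio3 region, whose fall is given above. Of 57 H/ACA box snoRNAs, which guide pseudouridylation, 12 rose and 26 fell. Over all features 22.8% rose and 28.1% fell. The sum over C/D box snoRNAs leaned the other way, 140239 to 162477 RPM on day 1 and 158857 to 183976 RPM on day 25. *SNORD44*, hosted by *Gas5* and the most abundant named snoRNA, had 26716, 25245 and 20183 RPM on day 1 and 59123, 55943 and 57255 RPM on day 25 (log2 fold change 1.13 ± 0.11 (SE), adjusted p = 9.7e-12). *SNORD28*, hosted by *Snhg1*, had 551, 448 and 340.0 RPM on day 1 and 2402, 2560.1 and 2921 RPM on day 25 (log2 fold change 2.44 ± 0.11 (SE), adjusted p = 5.6e-21). Of the scaRNAs, which guide modification of snRNAs in Cajal bodies, 9 of 13 fell and 0 rose (28.1% and 22.8% over all features). *SCARNA16* had 166, 203 and 211 RPM on day 1 and 39.4, 24.9 and 24.5 RPM on day 25 (log2 fold change -2.82 ± 0.18 (SE), adjusted p = 9.2e-17) and *SCARNA14* 251, 245 and 349 RPM on day 1 and 44.8, 51.8 and 54.0 RPM on day 25 (log2 fold change -2.58 ± 0.13 (SE), adjusted p = 1.0e-19).

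Of 18 tested spliceosomal snRNA features 10 rose and 3 fell, but the direction depended on the reference day: 12 were already higher and 2 lower on day 11 than on day 1, and 2 were higher and 11 lower on day 25 than on day 11. Over all features 22.8% were higher and 28.1% lower on day 25 than on day 1. These shares were 16.7% and 18.3% for day 11 against day 1, and 25.5% and 33.8% for day 25 against day 11. The U5 copy at chr4:116862547-116862662 had 647, 634 and 447 RPM on day 1 and 1629.7, 1783 and 2253 RPM on day 25 (log2 fold change 1.58 ± 0.13 (SE), adjusted p = 3.2e-13), and *U4atac*, of the minor spliceosome, 146, 124 and 94.2 RPM on day 1 and 378, 389.6 and 589 RPM on day 25 (log2 fold change 1.75 ± 0.21 (SE), adjusted p = 3.0e-09). *U12*, of the same minor spliceosome, fell, with 219, 165 and 165 RPM on day 1 and 41.2, 32.6 and 25.8 RPM on day 25 (log2 fold change -2.57 ± 0.15 (SE), adjusted p = 1.6e-17). snRNA copies are alike in sequence, so reads may be shared between them. *7SK*, the RNA that holds the elongation factor P-TEFb inactive, had 47.5, 54.9 and 46.0 RPM on day 1 and 163, 131 and 167 RPM on day 25 (log2 fold change 1.48 ± 0.19 (SE), adjusted p = 2.4e-08), and the main Y RNA feature 10170.1, 10262 and 9092 RPM on day 1 and 6402, 6613 and 7403 RPM on day 25 (log2 fold change -0.67 ± 0.09 (SE), adjusted p = 8.3e-08). Of 14 mitochondrial tRNAs 10 fell and 0 rose (median -1.07), beside 28.1% and 22.8% over all features. *mt-Tm*, the tRNA for methionine, had 1750.4, 1348 and 1272 RPM on day 1 and 292, 253 and 296 RPM on day 25 (log2 fold change -2.50 ± 0.13 (SE), adjusted p = 6.0e-20), and *mt-Tl2*, for leucine, 98.3, 71.3 and 68.9 RPM on day 1 and 12.5, 15.4 and 14.7 RPM on day 25 (log2 fold change -2.52 ± 0.28 (SE), adjusted p = 4.1e-10). Of the mitochondrial rRNAs *mt-Rnr1* fell, with 2123, 1662 and 1698 RPM on day 1 and 1299.8, 1315 and 1585 RPM on day 25 (log2 fold change -0.52 ± 0.09 (SE), adjusted p = 1.4e-05), and *mt-Rnr2* was not called (adjusted p = 0.075).

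Of 1408 tested gene bodies that hold no annotated small RNA, 196 reached the abundance filter only through the 6 libraries compared. Among the other 1212, 284 rose (23.4%) and 224 fell (18.5%), beside 20.9% and 30.2% over all features that passed without the 6, and with them 365 rose and 237 fell. Their reads of 20 to 24 nt may be fragments of transcripts or small RNAs without annotation, which the table does not distinguish. *Ezr*, the gene of ezrin, which ties the membrane to actin, had 245, 218 and 199.9 RPM on day 1 and 1047, 963 and 1051 RPM on day 25 (log2 fold change 2.07 ± 0.12 (SE), adjusted p = 1.6e-18). *Elovl6*, a fatty acid elongase, had 123, 83.7 and 80.4 RPM on day 1 and 685, 610.3 and 698 RPM on day 25 (log2 fold change 2.67 ± 0.15 (SE), adjusted p = 1.1e-18). *Dhx9*, an RNA helicase, had 149, 135 and 108 RPM on day 1 and 744, 733 and 947 RPM on day 25 (log2 fold change 2.49 ± 0.15 (SE), adjusted p = 2.0e-17). All 3 lay above every control library of days 1 to 11. *Hnrnph1*, a splicing regulator, had 52.3, 46.5 and 39.1 RPM on day 1 and 329.9, 315 and 435 RPM on day 25 (log2 fold change 2.80 ± 0.17 (SE), adjusted p = 9.6e-18), and *Bbx*, an HMG box gene, 18.9, 13.3 and 18.4 RPM on day 1 and 133, 107 and 124 RPM on day 25 (log2 fold change 2.65 ± 0.18 (SE), adjusted p = 6.4e-16). *Phf14*, with a PHD finger, had 45.1, 39.8 and 36.8 RPM on day 1 and 251, 217 and 281 RPM on day 25 (log2 fold change 2.46 ± 0.17 (SE), adjusted p = 6.2e-16), *Msh3*, of mismatch repair, 152, 104 and 98.8 RPM on day 1 and 479, 499 and 503 RPM on day 25 (log2 fold change 1.94 ± 0.13 (SE), adjusted p = 7.9e-16), and *Pdcd11*, of rRNA processing, 137, 112 and 89.6 RPM on day 1 and 389, 449 and 471 RPM on day 25 (log2 fold change 1.82 ± 0.13 (SE), adjusted p = 9.3e-16). No day 25 library of these genes fell into the range of day 1. *Itga9*, an integrin gene, held the highest level of the list, with 2829.8, 2829.9 and 2270.0 RPM on day 1 and 9760.0, 10106 and 6607 RPM on day 25 (log2 fold change 1.59 ± 0.16 (SE), adjusted p = 2.6e-11). *Chst11*, a chondroitin sulfotransferase gene whose body holds a U6 copy, had 453, 509 and 364 RPM on day 1 and 2488, 2700.2 and 2587 RPM on day 25 (log2 fold change 2.43 ± 0.16 (SE), adjusted p = 1.3e-16).

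Fewer gene bodies were nearly emptied. *Prosapip1* had 594, 568 and 354 RPM on day 1 and 12.5, 13.4 and 13.5 RPM on day 25 (log2 fold change -5.25 ± 0.17 (SE), adjusted p = 6.6e-26). *Wdfy4* had 47.0, 40.7 and 48.2 RPM on day 1 and 0 in all 3 day 25 libraries, at least 28.6-fold lower (adjusted p = 1.3e-18). *Ssbp4* had 50.9, 57.6 and 46.0 RPM on day 1 and 1.79, 0 and 1.23 RPM on day 25, a pooled ratio of 50.2-fold (95% exact binomial interval 13.8 to 416), and *Kcnh3*, a potassium channel gene, 46.0, 40.7 and 43.7 RPM on day 1 and 3.59, 0 and 4.90 RPM on day 25, a pooled ratio of 13.7-fold (95% exact binomial interval 6.19 to 37.7). All 4 fell in Dnmt1 KO cells as well, with log2 fold changes of -4.85, -4.39, -3.26 and -4.39.

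**Figure D4:**
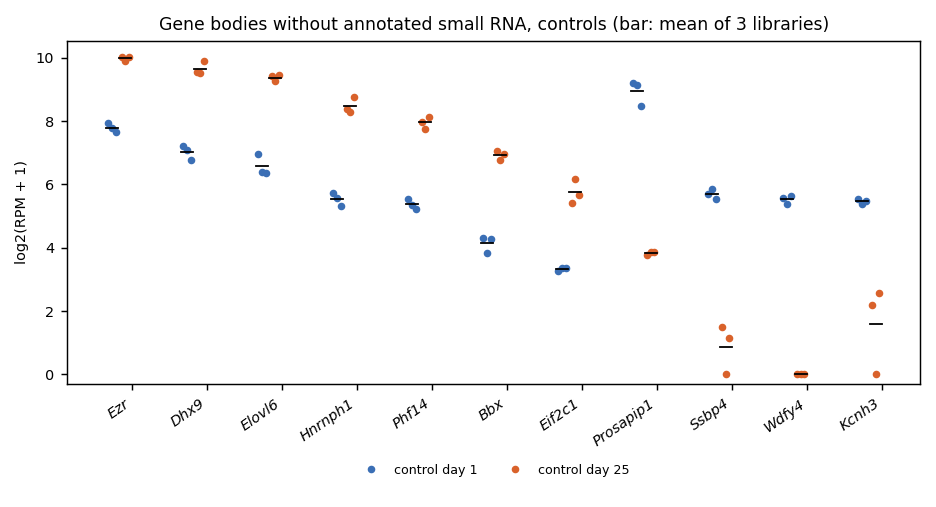
Level of gene bodies without annotated small RNA as log2(RPM + 1) in the 3 control libraries of day 1 and the 3 of day 25, with bars at the mean. The 7 genes on the left rose without overlap and the 4 on the right fell without overlap (*Ezr*: mean 221 and 1020.4 RPM, *Prosapip1*: 505 and 13.2 RPM).

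The same interval in Dnmt1 KO cells shares no library with the controls. There 1217 features (47.1%) were called, 225 of them miRNAs (77.3% of those tested, with 29.2% higher and 48.1% lower). Of these, 869 were also called in controls, 781 in the same direction, which is 59.4% of the calls in controls and 64.2% of those in Dnmt1 KO cells, and 88 in the opposite one. Among miRNAs 114 were called in the same direction (57% and 50.7% of the calls) and 55 in opposite directions. Of the 55, 51 were lower in controls and higher in Dnmt1 KO cells, and these comprised 44 miRNAs of Dlk1-Dio3 and 7 of the X cluster, of which 30 and 3 passed the abundance filter in controls. The change itself differed between genotypes for 515 features (19.9%), with 10.2% higher and 9.72% lower in controls than in KO cells, and 156 of these were miRNAs (53.6% of the miRNAs tested, 26.1% higher and 27.5% lower). The features that fell in both genotypes include *Mirlet7i*, with a log2 fold change of -5.04 in controls and -6.53 in KO, and *Mir143*, with -3.48 and -2.99. *Hnrnph1* rose in both, by 2.80 and 3.25, and so did *Bbx*, by 2.65 and 2.63. Day 25 libraries of both genotypes were shallower than those of the earlier days, and a change common to both cannot be told apart from library preparation.

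**Figure D5:**
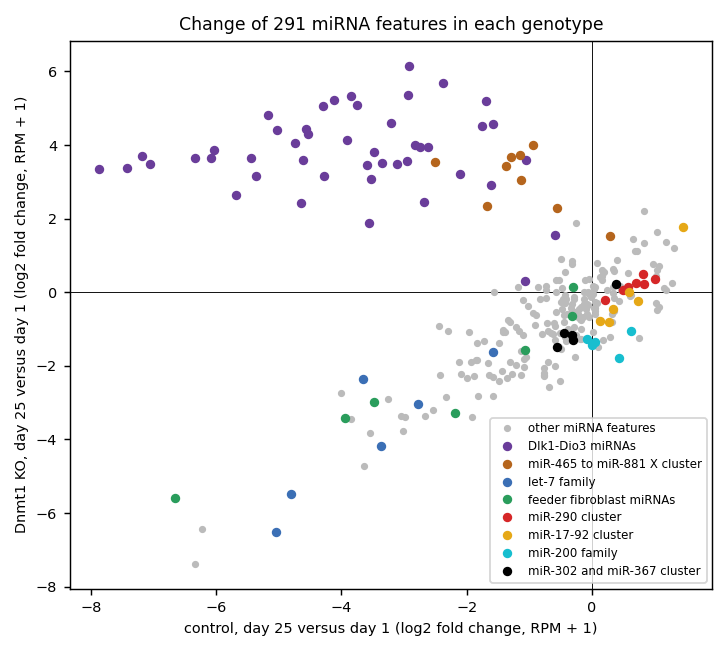
Log2 fold change of miRNA features between day 25 and day 1 in controls (x axis) and in Dnmt1 KO cells (y axis), with 1 point per feature. The Dlk1-Dio3 miRNAs stand apart at the upper left (median -3.67 in controls and 3.68 in KO), and the let-7 family lies at the lower left (median -3.51 and -3.61).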

How the data were processed

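Small RNA was sequenced in 83 libraries, and 6 of them, control ESCs of day 1 and day 25, are described here. According to the study's methods and the processing notes, reads were trimmed (Trim Galore 0.3.5), kept at 20 to 24 nt, mapped to NCBIM37 with Bowtie2 2.2.9 and counted per feature in SeqMonk; whether strand or multiply mapped reads were handled in a special way is not given in the sources used here. The deposited values are RPKM per feature, which the authors computed over the whole feature span. Multiplied by the span in kilobases they became RPM. In every library 100% of low values were whole multiples of 1 step within 5%, so the reads and the library's total could be read back. Features with at least 10 RPM in at least 3 of the 36 time course libraries without the R1 suffix were kept (2582, of which 291 miRNAs; 2346 would pass without the 6 libraries).

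log2(RPM + 1) values, scaled by trimmed means of M values (own implementation, 30% and 5% trimmed), were fitted in limma 3.58.1 (limma-trend, R 4.3.3) with 1 mean per day and genotype over the 36 libraries, and p-values were two-sided and Benjamini-Hochberg adjusted over all features. Fold changes are on the log2(RPM + 1) scale, while RPM printed per library are unscaled. The scaling factors were 0.97 to 1.04 on day 1 and 1.07 to 1.12 on day 25. Class shares were compared by exact permutation tests (scipy 1.17.1). Classes of host genes were left out of the shares, since their reads are largely those of the miRNAs and snoRNAs inside them. A group at 0 was set to 3 reads over the group for a bound on a fold, and groups with 9 reads or fewer were given as a pooled ratio with a 95% exact binomial interval, which covers counting error only. Of the 291 miRNA features 238 matched a RefSeq mature sequence by name.

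Members, lists and tests were chosen with earlier results of these data known, and the lists get no test of their own. Named were, per direction, the 10 features with the smallest adjusted p whose groups did not overlap, skipping features that overlap one already taken; up to 4 called members of each list with the largest change and its most abundant member; the 10 most abundant miRNAs; the Dlk1-Dio3 long genes, cluster hosts and *Dnmt1*; and, per direction, the 5 called features with the largest change for which the genotypes differed. Markers listed for a cell type are given as counts or sums, with values for a part of them only. Alternatives covered the pseudocount, scaling, filter, libraries in the fit, depth, replicate block, left-out libraries and the R1-suffixed day 1 controls, whose titles and genotype labels disagree. Counts over members that pass the filter outside the libraries compared were added after the values were seen. The scripts were tested on simulated data.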

Additional observations from a re-analysis of the deposited data

Results flagged for a closer look

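The change from day 1 to day 25 differed between control and Dnmt1 KO cells, by the interaction test at an adjusted p under 0.05, for 515 of the 2582 features. Groups held 3 libraries, too few to look for single libraries that stand apart. Differences are given as the log2 change in controls minus that in KO cells.

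Among the features called in controls, *Mir136* had the difference farthest below 0, -11.21 (-7.87 in controls and 3.34 in KO), followed by *Mir411* with -10.88 (-7.18 in controls and 3.70 in KO), *Mir127* with -10.80 (-7.43 in controls and 3.37 in KO), *Rtl1* with -10.62 (-7.22 in controls and 3.40 in KO) and *Mir300* with -10.55 (-7.05 in controls and 3.50 in KO). All 5 are features of Dlk1-Dio3, and the reads of *Mir127* and *Mir136* count for *Rtl1* as well.

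Among the features that rose in controls and whose change differed, the 5 with the largest rise are given here, all with a larger change in controls than in KO cells. *Caln1*, a calcium-binding protein gene, had 2.91, 3.98 and 0 RPM on day 1 and 14.3, 13.4 and 23.3 RPM on day 25, with a log2 change of 2.59 in controls and -0.20 in KO, a difference of 2.79. *Stra13* had 1.94, 3.98 and 0 RPM on day 1 and 16.1, 17.3 and 11.04 RPM on day 25, with 2.55 in controls and 0.87 in KO, a difference of 1.68. *Aatf* had 2.91, 2.21 and 2.30 RPM on day 1 and 16.1, 13.4 and 28.2 RPM on day 25, with 2.36 in controls and 0.93 in KO, a difference of 1.43. These 3 rest on few reads. *SNORD28* rose by 2.44 in controls and 1.34 in KO, a difference of 1.11, and *Elovl6* by 2.67 in controls and 1.73 in KO, a difference of 0.94.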

How the results depend on the processing

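The count of 1314 called features became 2135 without the filter on low values, 591 where each library of the contrast needed 10 reads and 782 when libraries were thinned to the depth of the shallowest. It was 1182 to 1296 when 1 library was left out, and within 1.5 times under every other alternative. With the 10-read minimum the counts were 663 in Dnmt1 KO cells, 230 for the difference between genotypes, 753 for day 25 versus day 11, and 100 for miRNAs; the minimum drops features absent on one day, such as most of Dlk1-Dio3. The difference between genotypes was called for 233 features when the 12 libraries were fitted alone and for 421 to 584 without 1 of the 12. The R1-suffixed day 1 controls are controls by title, while their genotype label reads Dnmt1 KO. Against them 1366 were called, 56.7% of them higher against 44.7%. Both fits called 1005 features, 996 in the same direction, among them 169 of 169 miRNAs. The day 25 libraries are the same in both. Depth of the R1-suffixed controls was 657805, 741557 and 278508 reads, against 2064084, 2258712 and 870481 in the same-numbered libraries without the suffix. Of their nonzero counts 95.9 to 96.4% were even, against 39.0 to 44.0%. Whether the sets share RNA or libraries is not stated, so this agreement cannot be taken as an independent repeat. Against the R1-suffixed controls the log2 fold changes reversed for Utf1 (1.43), Mir881 (0.22) and Mir669e (0.025). Library totals in place of TMM gave 1340 calls, 52.3% higher. Without the 5 most abundant features the class differences (day 25 minus day 1, percentage points) were 2.81 for miRNA, 4.69 for snoRNA, 0.494 for snRNA, -0.490 for misc_RNA, 0.00203 for rRNA, -0.369 for Mt_tRNA, 0.0067 for Mt_rRNA and 4.21 for gene bodies, whose value was 1.59 with hosts left out of the denominator; with the R1-suffixed controls it was 2.10, and that of misc_RNA -0.308. The causes of these shifts were not tested.

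A fit of the 6 libraries with a replicate block called 924 features and the same libraries without it 943, with 890 in common. Same-numbered libraries of the days did not deviate together (r = 0.077, 0.017 and -0.017 over miRNAs), so no pairing by number was seen. With 3 libraries per day these values cannot exclude that the numbers pair them. Of 3070 values of named features under the alternatives, 2933 kept their direction and side of the threshold. Depth limits rare features: 0 reads in all day 25 libraries allow a level of up to 1.58 RPM (3 reads over the group).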

Other observations

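The following features lay outside the rule for named features and were chosen after their values were seen. Values are means ± SD of 3 libraries. *Mir10a*, in the HoxB cluster and with a sequence much like miR-10b, had 7208 ± 1797 RPM on day 1 and 1341 ± 63.5 RPM on day 25 (log2 fold change -2.53, adjusted p = 1.5e-20). *Mir205*, known from squamous epithelia, had 501 ± 54.2 RPM on day 1 and 111 ± 13.3 RPM on day 25 (log2 fold change -2.30, adjusted p = 4.8e-21). *Mir574* had 29.3 ± 1.79 RPM on day 1 and 2.46 ± 1.05 RPM on day 25 (log2 fold change -3.26, adjusted p = 2.1e-13). The lincRNA *D230004N17Rik* on chromosome 9 and the miRNA features inside it known by clone names fell together: *D230004N17Rik* had 396 ± 13.7 RPM on day 1 and 23.8 ± 10.4 RPM on day 25 (log2 fold change -4.20, adjusted p = 3.0e-22), *CT009696.2* 145 ± 13.7 RPM on day 1 and 1.24 ± 1.07 RPM on day 25 (log2 fold change -6.22, adjusted p = 1.4e-22) and *CT025619.1* 249.9 ± 18.95 RPM on day 1 and 22.2 ± 10.3 RPM on day 25 (log2 fold change -3.65, adjusted p = 1.0e-19). *Mir2137*, inside *Zfp185* on the X chromosome, had 197 ± 10.7 RPM on day 1 and 2.23 ± 2.48 RPM on day 25 (log2 fold change -6.34, adjusted p = 1.3e-18). All of these fell in Dnmt1 KO cells as well, with log2 fold changes of -3.19, -1.05, -2.89, -5.23, -6.43, -4.72 and -7.38 in that order.

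Among gene bodies, *Ndc80*, of the outer kinetochore, had 5.93 ± 3.87 RPM on day 1 and 164 ± 26.3 RPM on day 25 (log2 fold change 4.57, adjusted p = 6.1e-15), and its body overlaps another feature. *Cnot8*, a deadenylase subunit gene, had 15.4 ± 4.77 RPM on day 1 and 147 ± 6.92 RPM on day 25 (log2 fold change 3.09, adjusted p = 1.2e-15), and *Secisbp2*, needed for selenoprotein synthesis, 29.5 ± 1.93 RPM on day 1 and 264 ± 21.2 RPM on day 25 (log2 fold change 2.99, adjusted p = 1.6e-15). The mitochondrial gene *mt-Co1*, of cytochrome c oxidase, fell along with the mitochondrial tRNAs, with 781 ± 175 RPM on day 1 and 103 ± 26.2 RPM on day 25 (log2 fold change -3.05, adjusted p = 6.0e-20).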
